A study of Mus musculus with 3 samples.

Results

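The 9 genes described here encode integrin subunits: the alpha chains Itga1, Itga3, Itga9 and Itgav and the beta chains Itgb1, Itgb4, Itgb5, Itgb6 and Itgb8. They were taken by gene symbol from 19050 symbols, all 9 were found, and their UMIs were described in 3 classes of mammary epithelial cells. An integrin is a surface receptor of 1 alpha and 1 beta chain that binds the extracellular matrix outside the cell and the actin or keratin skeleton inside it. In the mammary gland the basal (myoepithelial) cells sit on the basement membrane and contract to eject milk, while luminal cells line the duct and touch that membrane less. Integrins are known there for holding basal cells to laminin, and those built on alpha v for releasing the growth factor TGF-beta from its latent form.

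All 3 libraries belong to 1 untreated group without a genetic change: epithelial cells of female FVB/NJ mice, an inbred strain, at an age of 10 weeks. Glands number 4 of 4 mice were pooled per the labels, dissociated with collagenase and trypsin, stained for CD49f, EpCAM, CD31, CD45 and Ter119, and live epithelial cells were sorted. CD49f is the alpha 6 integrin chain, so 1 integrin took part in the sort, although none of the 9. RNA was counted with the 10x Genomics 3' v2 droplet method, in which a unique molecular identifier (UMI) marks each captured RNA molecule and a barcode each droplet. The labels do not say whether the libraries came from separate pools of mice, so the p-values below measure only the spread between libraries, which may be technical.

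The tables hold 26845 cell barcodes, of which 26320 passed a filter of 500 or more genes per barcode and less than 10% of UMIs from mitochondrial genes. A cell was assigned to the class with the largest summed UMIs of its markers, which are Krt5, Krt14 and Acta2 for basal, Csn3, Elf5, Kit and Aldh1a3 for luminal progenitor, and Prlr, Areg, Pgr and Esr1 for hormone-responsive luminal cells. That sum had to reach 5 UMIs and 3 times each other sum. The rule gave 10723 basal, 8191 luminal progenitor and 2610 hormone-responsive cells, and left 4796 (18.2%) without a class. The classes held 1572, 4782 and 4369 basal, 3239, 1651 and 3301 luminal progenitor, and 357, 999 and 1254 hormone-responsive cells in libraries 1, 2 and 3. The sort can set these numbers. Median UMIs per cell ran from 1770 to 2208 in basal, 2858 to 3785 in luminal progenitor and 3338 to 3840 in hormone-responsive cells. Libraries 1 and 2 shared 77 barcodes, libraries 1 and 3 shared 129, and libraries 2 and 3 shared 146. Within every class, library 1 stood further from libraries 2 and 3 than these did from each other (chi-square per degree of freedom over genes 14.1 to 88.0, against 5.06 to 14.8).

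Markers outside the rule fitted the class names in sum. The 8 further basal markers summed to 8116 to 8729 CPM (UMIs per 1000000 UMIs of the class and library) in basal, 175 to 295 CPM in luminal progenitor and 122 to 262 CPM in hormone-responsive cells. The 7 further luminal progenitor markers summed to 2192 to 2289, 15830 to 27680 and 633 to 991 CPM in the same classes. The 7 further hormone-responsive markers summed to 33.4 to 78.8, 30.1 to 68.7 and 2206 to 3010 CPM. Single markers went against this: Lcn2 stood in basal cells at 53.8% of its luminal progenitor level, and Greb1 at 111.7% of its hormone-responsive level. Single basal markers stood at 1.41% to 13.3% (median 2.31%) of their basal level in luminal progenitor cells and at 1.06% to 3.39% (median 2.35%) in hormone-responsive cells. The source of these UMIs was not tested, and levels of an integrin within these ranges are not read as expression.

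The positions of the 9 genes are given on build GRCm38 with the GENCODE M21 annotation, as whole genes. Itgb1, the beta chain that pairs with alpha 1, alpha 3, alpha 9 and alpha v among others, lies at chr8:128685654-128733200 on the plus strand. Itga1, the alpha chain of a collagen receptor, lies at chr13:114953096-115101964 on the minus strand and overlaps Pelo, a gene of the same strand that is also in the tables, so reads in the shared stretch may have been assigned to either gene or to none. None of the other 8 members overlaps another gene on its own strand. Itga3, the alpha chain of a laminin receptor, lies at chr11:95044474-95076801 on the minus strand. Itga9, whose receptor binds tenascin-C and VCAM1, lies at chr9:118606690-118901003 on the plus strand. Itgav, the alpha v chain, lies at chr2:83724397-83806916 on the plus strand. Itgb4, which pairs with alpha 6 in hemidesmosomes, the anchors of keratin filaments to the basement membrane, lies at chr11:115974709-116008412 on the plus strand. The remaining 3 beta chains pair with alpha v: Itgb5, of a vitronectin receptor, at chr16:33829665-33949338 on the plus strand, Itgb6, of an epithelial receptor that activates latent TGF-beta, at chr2:60598292-60722643 on the minus strand, and Itgb8, also of a receptor for latent TGF-beta, at chr12:119158022-119238802 on the minus strand.

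Promoters are shown for 3 members with different patterns across the classes, described further on. These are Itga1, at a low level in basal cells but far above both luminal classes, Itgb1, present in all classes and highest in basal cells, and Itgb5, at like levels in basal and hormone-responsive cells. Each sequence is the 250 bases before the RefSeq transcript start (GRCm38.p6), read 5' to 3' on the strand of the gene, and for these 3 that start equals the GENCODE gene start. Capitals mark matches to 5 searched motifs, on either strand. The Itga1 window is chr13:115101965-115102214 (minus strand), the Itgb1 window chr8:128685404-128685653 (plus strand) and the Itgb5 window chr16:33829415-33829664 (plus strand).
Itga1: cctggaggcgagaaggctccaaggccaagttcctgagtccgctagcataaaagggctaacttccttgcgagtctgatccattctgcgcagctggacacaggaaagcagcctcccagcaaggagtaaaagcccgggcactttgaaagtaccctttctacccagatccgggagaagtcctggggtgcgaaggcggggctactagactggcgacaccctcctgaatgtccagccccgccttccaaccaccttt
Itgb1: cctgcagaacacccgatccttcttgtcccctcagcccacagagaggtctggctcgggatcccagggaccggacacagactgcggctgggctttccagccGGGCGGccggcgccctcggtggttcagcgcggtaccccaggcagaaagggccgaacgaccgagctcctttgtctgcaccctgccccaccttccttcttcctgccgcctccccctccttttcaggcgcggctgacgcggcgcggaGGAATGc
Itgb5: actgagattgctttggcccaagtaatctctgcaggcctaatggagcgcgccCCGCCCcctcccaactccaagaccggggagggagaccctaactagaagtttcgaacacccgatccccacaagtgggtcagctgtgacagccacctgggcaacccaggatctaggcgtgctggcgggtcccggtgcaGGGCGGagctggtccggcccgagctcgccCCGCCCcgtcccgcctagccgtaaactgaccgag
The share of 32851 mouse promoter windows of the same length that held each motif was counted as a background. The GC box, GGGCGG, was present in 32.7% of them. It occurred 3 times in the Itgb5 window and once in the Itgb1 window. The letters of the TEAD motif, CATTCC, were present in 12.6% of all windows and once in the Itgb1 window. The other 3 motifs had no match in the windows shown: RUNX was searched as TGTGGT, which 14.0% of all windows held. For AP-1 the letters were TGANTCA, held by 6.75% of windows. For TATA they were TATAAA, held by 12.4%. The Itga1 window held none of the 5 motifs, and no match shown overlaps another. Of the 9 members, 8 were matched to the RefSeq table, with 10 windows in all.

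Between basal and luminal progenitor cells, 5 of the 9 integrin genes were higher in basal cells, 1 was lower and 3 were not called. A gene was called at an adjusted p below 0.05 and a log2 fold change of at least 1 in size (edgeR's quasi-likelihood test with Benjamini-Hochberg adjustment over 12647 genes, two-sided, on UMIs summed per library and class). Over all genes tested, 17% were called higher in basal cells and 13.4% lower. The median log2 fold change of the 9 genes was 1.32, against -0.08 over all genes tested. The genes higher in basal cells were the 4 alpha chains and Itgb1, the beta chain that pairs with each of them, and the lower one was Itgb6. Itga1 could be called in this direction only, for the reason given with its levels below. The error beside each fold change is the SD of 3 log2 ratios, 1 from each library.

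Itga1, the collagen-binding chain, stood at 15.0, 13.4 and 11.6 CPM in basal cells of libraries 1, 2 and 3, against 0.276, 0.303 and 0.327 CPM in luminal progenitor cells. The groups did not overlap, and the luminal progenitor values rest on 3, 2 and 4 UMIs. In hormone-responsive cells 1 UMI was found in library 3 and none in libraries 1 and 2, where 3 counts would be 2.27 and 0.797 CPM. The ratio of summed rates was 42.9 of basal over luminal progenitor cells (95% interval 22.3 to 94.6, exact, counting error only as for all intervals here; 315 against 9 UMIs). Of basal over hormone-responsive cells it was 121 (21.6 to 4790; 315 against 1 UMI). Itga1 was higher in basal than in luminal progenitor cells (adjusted p = 3.15e-06) and than in hormone-responsive cells (adjusted p = 1.05e-05). It passed the filter on low counts only through its basal sums, so it could be called in this direction only. These p-values add no support beyond the counts given. Its luminal progenitor level was 2.31% of the basal one, equal to the median of the basal markers, and is not read as expression.

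Pericytes and endothelial cells also carry Itga1. Cells with UMIs of at least 2 markers of one non-epithelial type made up 2.77% of basal cells (297 of 10723) and held 6.67% of their Itga1 UMIs (21 of 315). Among all kept cells so marked, those with pericyte markers stood at 46.1 CPM of Itga1 and those with endothelial markers at 29.5 CPM. The 7 pericyte markers summed to 34.0 to 41.1 CPM in basal cells (7 of 7 found), 79.0 to 91.6 CPM in luminal progenitor cells (6 of 7, Kcnj8 at 0) and 73.5 to 106 CPM in hormone-responsive cells (4 of 7; Cspg4, Abcc9 and Kcnj8 at 0). The 6 endothelial markers summed to 8.03 to 17.8, 7.28 to 10.0 and 9.56 to 14.9 CPM in the same classes, with Tie1 at 0 in hormone-responsive cells. The 6 fibroblast markers summed to 84.4 to 296, 17.6 to 45.8 and 160 to 183 CPM. With all marked cells left out, the log2 fold change of Itga1 was 5.63 against luminal progenitor cells (adjusted p = 2.46e-06), as large as with them, and the calls of the other 8 genes in this comparison stayed as they were.

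Itga9, the tenascin-C and VCAM1 receptor chain, stood at 53.8, 69.1 and 65.0 CPM in basal cells, against 1.47, 2.12 and 1.80 CPM in luminal progenitor cells and 2.27, 1.86 and 1.42 CPM in hormone-responsive cells. Basal cells lay far above both luminal classes, which overlapped. It was higher in basal than in luminal progenitor cells by a log2 fold change of 5.08 ± 0.09 (n = 3, adjusted p = 2.33e-07) and than in hormone-responsive cells by 5.28 ± 0.39 (adjusted p = 3.78e-07). Its luminal levels were 2.86% and 3.03% of the basal level, inside the range of the basal markers, and are not read as expression. These luminal levels rest on 52 UMIs in luminal progenitor and 16 in hormone-responsive cells. Both fold changes are thus taken against levels not read as expression. Within libraries 1, 2 and 3 the ratios of basal over luminal progenitor cells were 4.978, 4.79 and 4.885, all below the fitted value. The small SD of 0.09 is therefore not read as precision.

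Itga3, the laminin-receptor chain, stood at 117, 166 and 140 CPM in basal cells, against 24.1, 34.1 and 28.8 CPM in luminal progenitor cells and 52.3, 69.3 and 56.1 CPM in hormone-responsive cells. No class overlapped another, and in each class library 2 was the highest and library 1 the lowest. It was higher in basal than in luminal progenitor cells by a log2 fold change of 2.24 ± 0.07 (adjusted p = 6.48e-07) and than in hormone-responsive cells by 1.33 ± 0.05 (adjusted p = 1.07e-05). Luminal progenitor over hormone-responsive cells gave -0.90 ± 0.10 (adjusted p = 0.000212), which is under the fold threshold. Its luminal levels, at 20.6% and 42.2% of the basal one, lay above those of all 8 basal markers.

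Itgav, the alpha v chain, stood at 184, 213 and 196 CPM in basal cells, against 55.9, 44.3 and 65.2 CPM in luminal progenitor cells and 118, 142 and 121 CPM in hormone-responsive cells. The 3 classes did not overlap, with luminal progenitor cells the lowest. It was higher in basal than in luminal progenitor cells by a log2 fold change of 1.79 ± 0.36 (adjusted p = 2.72e-05). Against hormone-responsive cells the basal value was 0.72 ± 0.10 (adjusted p = 0.0049), under the fold threshold. Itgav was lower in luminal progenitor than in hormone-responsive cells, by -1.08 ± 0.45 (adjusted p = 0.000921). Without library 2 that difference was -0.83 (adjusted p = 0.0139) and no longer called.

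Itgb1, the shared beta chain, stood at 394, 398 and 367 CPM in basal cells, against 166, 149 and 136 CPM in luminal progenitor cells and 195, 234 and 197 CPM in hormone-responsive cells. The order was basal, hormone-responsive, luminal progenitor, with no overlap between libraries of neighbouring classes. It was higher in basal than in luminal progenitor cells by 1.32 ± 0.04 on the log2 scale (adjusted p = 2.13e-05). Basal over hormone-responsive cells gave 0.97 ± 0.19 (adjusted p = 0.000131), just under the fold threshold, and 1.07 (adjusted p = 0.003) without library 2, which passed it. Luminal progenitor over hormone-responsive cells gave -0.35 ± 0.23 (adjusted p = 0.0374), not called.

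**Figure D1:**
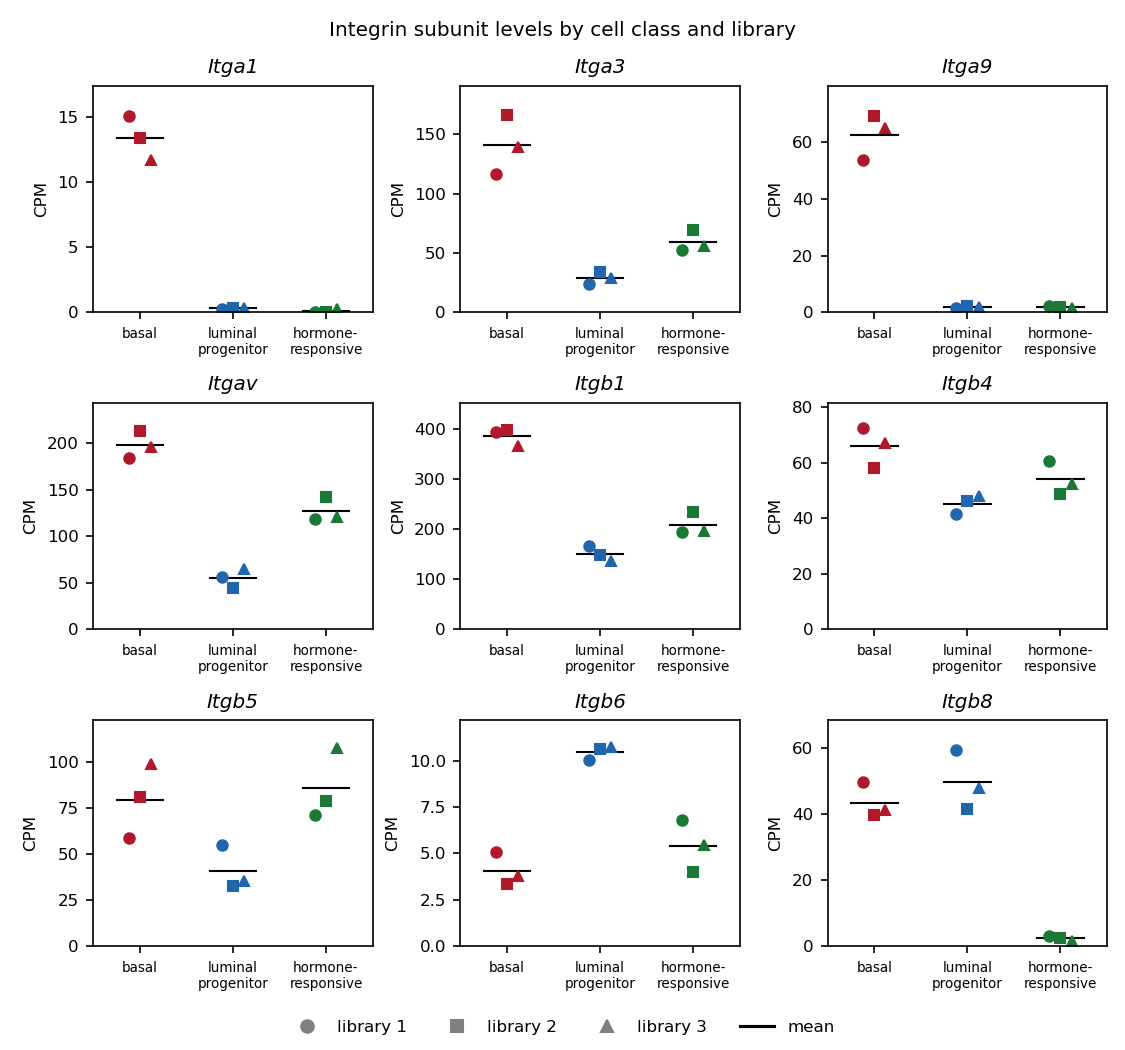
Level of each of the 9 integrin genes (CPM, linear axes from 0, scaled per gene) in basal, luminal progenitor and hormone-responsive cells. Each point is 1 library (circle, square and triangle for libraries 1, 2 and 3) and each line the mean of 3. Itga1 and Itga9 stand near 0 in both luminal classes, Itgb8 stands near 0 in hormone-responsive cells, and Itgb6 is highest in luminal progenitor cells.

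Itgb4, the hemidesmosome chain, stood at 72.5, 58.2 and 67.2 CPM in basal cells, against 41.5, 46.2 and 47.8 CPM in luminal progenitor cells and 60.6, 48.9 and 52.3 CPM in hormone-responsive cells. Basal cells overlapped hormone-responsive cells and lay above luminal progenitor cells. None of its differences was called: the log2 fold change was 0.49 ± 0.30 for basal over luminal progenitor (adjusted p = 0.0129), 0.38 ± 0.08 for basal over hormone-responsive (adjusted p = 0.0444) and -0.11 ± 0.26 for luminal progenitor over hormone-responsive cells (adjusted p = 0.553).

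Against hormone-responsive cells, 4 of the 9 genes were higher in basal cells and 0 lower, where 20.5% of all genes tested were called higher and 14.8% lower. An unadjusted p below 0.05 and a negative fold change together were found for none of the 9, and DESeq2 called none lower. The 4 were Itga1, Itga3 and Itga9, given above, and Itgb8. Of these, Itga1 could be called in this direction only. The median log2 fold change of the 9 genes was 0.97, against -0.01 over all genes. Between luminal progenitor and hormone-responsive cells, 2 of the 9 were higher in luminal progenitor cells (Itgb6 and Itgb8) and 1 lower (Itgav), where 13.7% of all genes tested were called higher and 10.3% lower. That share of 9 genes is close to the background, and the median of the 9 was -0.11, against 0.05 over all genes.

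Among the members, the 3 beta chains besides Itgb1 that pair with alpha v each had another pattern. Itgb8 stood at 49.6, 39.6 and 41.2 CPM in basal cells, against 59.3, 41.5 and 47.7 CPM in luminal progenitor cells and 3.03, 2.66 and 1.66 CPM in hormone-responsive cells. Basal and luminal progenitor cells overlapped, and hormone-responsive cells lay far below both in all 3 libraries. Itgb8 was higher than in hormone-responsive cells by 4.26 ± 0.35 on the log2 scale in basal cells (adjusted p = 8.28e-07) and by 4.49 ± 0.44 in luminal progenitor cells (adjusted p = 7.64e-07). Both rest on 4, 10 and 7 UMIs in hormone-responsive cells of libraries 1, 2 and 3. Basal over luminal progenitor cells gave -0.23 ± 0.09 (adjusted p = 0.166). The hormone-responsive level was 5.62% of the basal one, above the 8 basal markers there (up to 3.39%), and 4.99% of the luminal progenitor one, inside the range of the 7 luminal progenitor markers (1.58% to 5.95%). It is not read as expression.

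Itgb6 stood at 5.10, 3.35 and 3.77 CPM in basal cells, against 10.0, 10.6 and 10.7 CPM in luminal progenitor cells and 6.82, 3.98 and 5.45 CPM in hormone-responsive cells. Luminal progenitor cells lay above both other classes, which overlapped. It was lower in basal than in luminal progenitor cells, with a log2 fold change of -1.45 ± 0.40 (adjusted p = 0.000587). It was higher in luminal progenitor than in hormone-responsive cells by 1.13 ± 0.39 (adjusted p = 0.0058), a call lost when library 2 was left out (0.94, adjusted p = 0.0967) and when library 3 was (1.13, adjusted p = 0.085). These rest on 91 UMIs in basal, 310 in luminal progenitor and 47 in hormone-responsive cells. Basal over hormone-responsive cells gave -0.32 ± 0.12 (adjusted p = 0.339).

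Itgb5 stood at 58.6, 80.9 and 98.7 CPM in basal cells, against 55.1, 32.4 and 35.3 CPM in luminal progenitor cells and 71.2, 78.6 and 108 CPM in hormone-responsive cells. Basal and hormone-responsive cells overlapped, and luminal progenitor cells were lowest in each library. The libraries differed: basal over luminal progenitor cells gave a log2 ratio of 0.13 in library 1, against 1.25 and 1.37 in libraries 2 and 3. The fitted value was 0.91 ± 0.69 (adjusted p = 0.0104), under the fold threshold, and 1.39 without library 1 (adjusted p = 1.09e-06), past it. Luminal progenitor over hormone-responsive cells gave -0.94 ± 0.62 (adjusted p = 0.0128), and -1.33 without library 1 (adjusted p = 3.65e-06), past the threshold. Basal over hormone-responsive cells gave -0.04 ± 0.10 (adjusted p = 0.911).

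**Figure D2:**
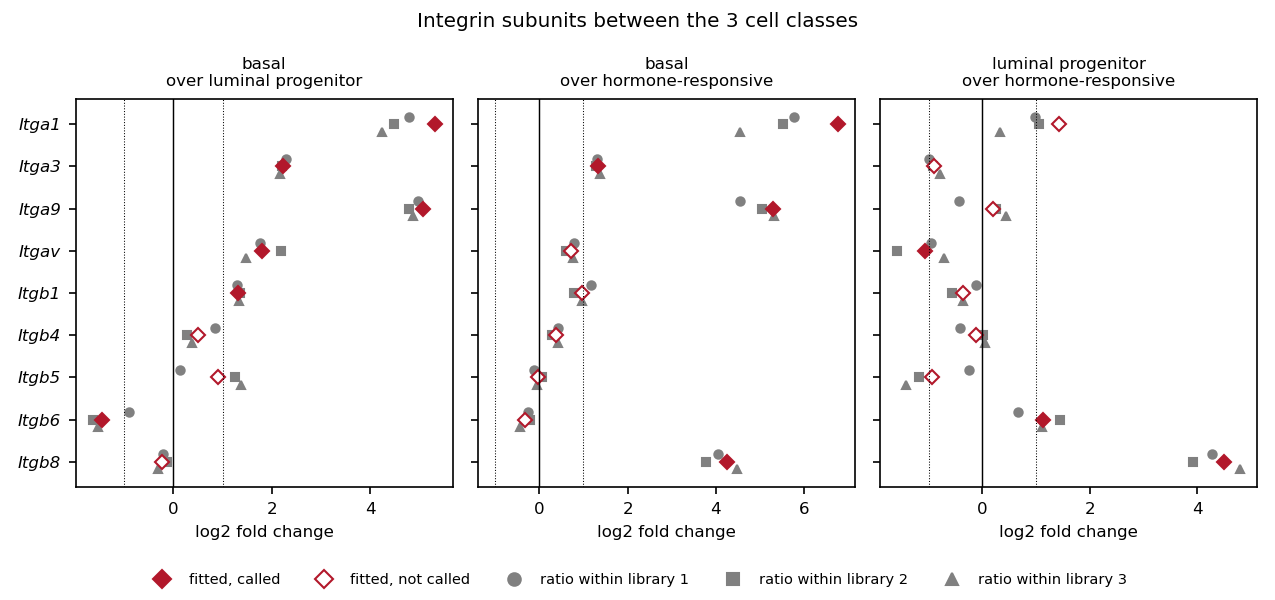
Log2 fold change of the 9 integrin genes between the 3 pairs of classes, with diamonds for the fitted value (filled where called) and grey marks for the ratio within each library. Dotted lines mark log2 fold changes of -1 and 1. Ratios within libraries carry a prior count of 2, so for Itga1, near 0 UMIs in both luminal classes, they lie nearer to 0 than the fitted values. For Itgb5, library 1 lies apart from libraries 2 and 3 in basal over luminal progenitor cells.

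To set partners of alpha v side by side, the UMIs of Itgb5, Itgb6, Itgb8 and Itgb3 were taken as shares of their sum. Itgb3 is the beta chain of another vitronectin receptor. Itgb1, which also pairs with alpha v, was left out of the sum. It had 9363 UMIs in basal, 4443 in luminal progenitor and 1970 in hormone-responsive cells, against sums of 4053, 4445 and 955. The shares are therefore not shares of all partners of alpha v. UMIs of 3' ends were not divided by gene length, so the shares are compared between classes and not between genes. Itgb5 made up 50.3% of these UMIs in basal cells (95% exact interval 48.8 to 51.9), 28.0% in luminal progenitor cells (26.7 to 29.3) and 88.5% in hormone-responsive cells (86.3 to 90.4). By library these were 45.4%, 47.9% and 54.8% in basal, 37.9%, 22.2% and 22.7% in luminal progenitor, and 86.2%, 87.3% and 89.7% in hormone-responsive cells, with no overlap of classes. Itgb8 made up 38.4%, 23.4% and 22.9% in basal cells, 40.8%, 28.4% and 30.7% in luminal progenitor cells, and 3.67%, 2.95% and 1.38% in hormone-responsive cells. Itgb6 took 3.95%, 1.98% and 2.09% in basal cells, 6.91%, 7.26% and 6.88% in luminal progenitor cells, and 8.26%, 4.43% and 4.54% in hormone-responsive cells. Itgb3 took 12.3%, 26.7% and 20.2% in basal cells, 14.3%, 42.1% and 39.8% in luminal progenitor cells and 1.83%, 5.31% and 4.34% in hormone-responsive cells, lowest in library 1 in each class. No test of these shares was run.

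**Figure D3:**
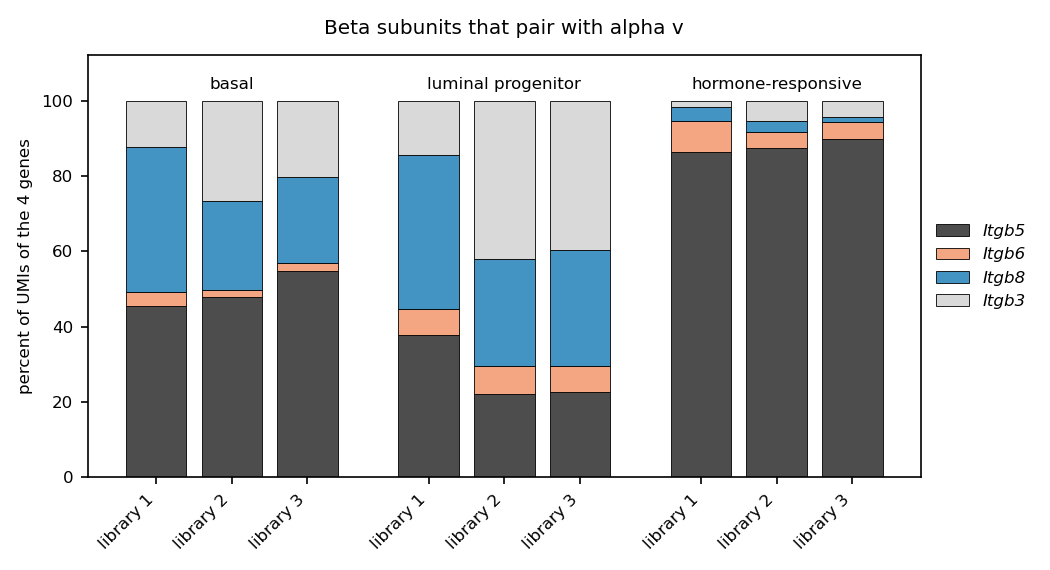
Share of the summed UMIs of Itgb5, Itgb6, Itgb8 and Itgb3 held by each gene, in percent, for each class and library. Itgb1, which also pairs with alpha v, is not in the sum. Itgb5 holds 86.2% to 89.7% in the 3 libraries of hormone-responsive cells, against 22.2% to 37.9% in luminal progenitor cells.

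The share of cells with a UMI differed widely between the genes. With each cell thinned to 1500 UMIs, which left out 2269 basal, 664 luminal progenitor and 192 hormone-responsive cells, a UMI of Itgb1 was found in 44.0% ± 1.31 of basal, 20.3% ± 1.82 of luminal progenitor and 27.7% ± 1.89 of hormone-responsive cells (mean ± SD, n = 3). Unthinned, the shares were 54.3% ± 5.16, 39.8% ± 2.44 and 49.9% ± 4.75. Itgav was found in 26.2% ± 1.60, 8.06% ± 0.916 and 18.3% ± 0.668 of thinned cells of these classes, and Itga3 in 19.0% ± 2.90, 4.09% ± 0.882 and 8.93% ± 0.528. Unthinned, Itgav reached 34.5%, 17.2% and 34.8% and Itga3 25.98%, 10.04% and 18.7%. Itgb8 was found in 6.48% ± 1.06, 6.91% ± 1.32 and 0.265% ± 0.0810 of thinned cells, and Itga9 in 8.89% ± 1.14, 0.287% ± 0.0981 and 0.250% ± 0.125. Unthinned, Itgb8 reached 9.11%, 15.4% and 0.867% and Itga9 12.6%, 0.659% and 0.673%. Itga1 was found in only 2.08% ± 0.363 of thinned basal cells. As a gauge of UMIs in cells that should lack a gene, the smooth-muscle gene Tagln was found in 82.5% ± 6.30 of thinned basal cells. It was found in 2.95% ± 0.413 of luminal progenitor cells and 2.68% ± 1.04 of hormone-responsive cells. Tagln is found in many more basal cells than Itga9, so its luminal shares cannot decide whether those of Itga9 are expression. The luminal levels of Itga9 are not read as expression because of their ratio to the basal level, given above.

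Of the other integrin subunits, 18 were listed, 16 are in the tables and 8 passed the filter on low counts. In basal over luminal progenitor cells, 4 of these 8 were higher, 1 was lower and 3 were not called, with a median log2 fold change of 0.95. Over all genes tested, 17% were called higher and 13.4% lower, with a median of -0.08. The largest differences were in Itga5, the alpha chain of the fibronectin receptor (4.24 ± 1.11, adjusted p = 2.3e-05), Itga6, the laminin-binding CD49f chain of the sort (2.37 ± 0.13, adjusted p = 6.6e-06), and Itga7, another laminin-binding chain (1.97 ± 0.20, adjusted p = 0.00563). Itga10, the alpha chain of a collagen receptor, was lower (-1.84 ± 0.91, adjusted p = 0.00523). Itga7 and Itga10 rest on few UMIs: Itga7 had 50 in basal and 18 in luminal progenitor cells and was not called without library 2 (adjusted p = 0.0502), and Itga10 had 36 and 131 and was not called without library 3 (adjusted p = 0.0789). Within libraries 1, 2 and 3 the ratios of Itga7 were 1.40, 1.80 and 1.53, all below the fitted value. Itga6 stood at 745, 918 and 774 CPM in basal cells, against 154, 180 and 125 CPM in luminal progenitor cells and 127, 142 and 186 CPM in hormone-responsive cells, with basal cells above both other classes. The gate used CD49f, and its part in these levels was not tested.

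Itga5 set the luminal classes apart: it stood at 34.6, 26.7 and 27.7 CPM in basal cells, against 0.553, 1.52 and 2.45 CPM in luminal progenitor cells and 12.9, 20.7 and 23.0 CPM in hormone-responsive cells. It was lower in luminal progenitor than in hormone-responsive cells (-3.54 ± 0.46, adjusted p = 0.000171), and basal over hormone-responsive cells gave 0.69 ± 0.69 (adjusted p = 0.0933). Itgb3 stood at 15.9, 45.1 and 36.4 CPM in basal cells, against 20.8, 61.6 and 61.9 CPM in luminal progenitor cells and 1.51, 4.78 and 5.21 CPM in hormone-responsive cells. In each class library 1 was lowest, and hormone-responsive cells lay below both other classes. Itgb3 was higher than in hormone-responsive cells by 3.13 ± 0.26 in basal (adjusted p = 2.6e-06) and 3.73 ± 0.02 in luminal progenitor cells (adjusted p = 1.43e-06). Basal over luminal progenitor cells gave -0.60 ± 0.26 (adjusted p = 0.00514), not called. The hormone-responsive level of Itgb3 rests on 2, 18 and 22 UMIs in libraries 1, 2 and 3, so the small SD of 0.02 is not read as precision. Itga2, a collagen-binding chain, gave -0.27 ± 0.38 for basal over luminal progenitor cells (adjusted p = 0.412). It was higher than in hormone-responsive cells in both other classes (1.16 in basal, adjusted p = 0.0206, and 1.42 in luminal progenitor cells, adjusted p = 0.00987). The basal call was lost without library 2 and without library 3 (adjusted p = 0.087 and 0.143), and the luminal progenitor call without library 3 (adjusted p = 0.151). Itga4, a chain of a VCAM1 receptor best known from white blood cells, had 1 UMI over the 3 classes together.

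Inside the cell, adaptor proteins link the tails of integrins to actin. Of 34 listed adaptors and linkers of focal adhesions, 30 were tested. In basal over luminal progenitor cells 18 were higher, 1 was lower and 11 were not called, with a median of 1.28. All genes tested gave 17% higher and 13.4% lower, with a median of -0.08. The largest differences were in the adaptor Tgfb1i1 (Hic-5) at 4.90 ± 0.31 (adjusted p = 2.33e-07), Lims2 (a LIM protein that binds integrin-linked kinase) at 4.77 ± 0.90 (adjusted p = 8.68e-05) and the actin-binding tensin Tns1 at 4.57 ± 0.37 (adjusted p = 4.54e-07). Tgfb1i1 stood at 139, 161 and 160 CPM in basal cells, against 5.62, 5.61 and 3.84 CPM in luminal progenitor cells. Lims2 had 211 UMIs in basal and 11 in luminal progenitor cells. Ptk2b, a kinase related to focal adhesion kinase, was lower (-2.61 ± 0.74, adjusted p = 4.72e-05), at 0.850, 1.84 and 2.97 CPM in basal cells, against 12.9, 10.0 and 13.0 CPM in luminal progenitor cells. Against hormone-responsive cells, 22 of 30 were higher in basal cells and 1 was lower, where 20.5% and 14.8% of all genes tested were. In luminal progenitor over hormone-responsive cells 6 of 30 were higher and 2 lower, where 13.7% and 10.3% of all genes were. The counts of this last comparison are close to the background.

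Of 11 genes of hemidesmosomes and tetraspanins, the membrane proteins that gather integrins, all were tested. Of these, 6 were higher in basal than in luminal progenitor cells, 2 lower and 3 not called (median 1.21). All genes tested gave 17% higher and 13.4% lower (median -0.08). Itgb4 itself gave 0.49 in this comparison. Col17a1, the transmembrane collagen of hemidesmosomes, gave 5.62 ± 0.81 (adjusted p = 9.9e-07), Lama3, the alpha chain of laminin-332, 3.55 ± 0.64 (adjusted p = 4.39e-06), and the keratin linker Dst 3.48 ± 0.15 (adjusted p = 3.35e-07). Col17a1 stood at 272, 218 and 309 CPM in basal cells, against 3.22, 7.73 and 5.56 CPM in luminal progenitor cells. The tetraspanins Cd82 (-2.82 ± 0.23, adjusted p = 1.5e-06) and Cd81 (-1.66 ± 0.30, adjusted p = 1.61e-05) were lower in basal cells. Against hormone-responsive cells, 5 were higher in basal cells and 2 lower, where 20.5% and 14.8% of all genes tested were. In luminal progenitor over hormone-responsive cells 3 were higher and 5 lower, where 13.7% and 10.3% of all genes were.

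Among ligands, 33 matrix genes and partners of latent TGF-beta were listed and 27 tested. Of these, 15 were higher in basal than in luminal progenitor cells, 7 lower and 5 not called (median 1.095). Without the block for library, 13 were higher. Col1a1, also a fibroblast marker, was among the 15. Its call was lost with cells of non-epithelial markers left out (1.29, adjusted p = 0.0701). The calls of Tgfb1 and Lamb2 were also lost under some of the alternatives. All genes tested gave 17% higher and 13.4% lower (median -0.08). The type IV collagen chains Col4a2 (4.89 ± 0.71, adjusted p = 1.51e-06) and Col4a1 (4.64 ± 0.43, adjusted p = 4.33e-07) and nidogen Nid1 (4.40 ± 0.71, adjusted p = 7.28e-06), all of the basement membrane, had the largest differences among the genes higher in basal cells. The lower genes were led by osteopontin Spp1, an alpha v ligand (-5.31 ± 0.23, adjusted p = 2.08e-07), Lrrc32, which holds latent TGF-beta at the cell surface (-3.77 ± 0.43, adjusted p = 1.83e-06), and Ltbp1, which holds it in the matrix (-2.56 ± 0.27, adjusted p = 3.17e-05). Spp1 stood at 56.6, 19.2 and 31.5 CPM in basal cells, against 1927, 842 and 1211 CPM in luminal progenitor cells and 41.7, 20.4 and 31.5 CPM in hormone-responsive cells. Lrrc32 stood at 1.13, 1.34 and 1.94 CPM in basal cells, against 25.5, 16.2 and 22.0 CPM in luminal progenitor cells and 1.51, 1.06 and 0.947 CPM in hormone-responsive cells. Luminal progenitor cells were thus the highest of the 3 classes for both genes, in every library. The 7 luminal progenitor markers outside the rule also had UMIs in the other classes. They stood at 2.49% to 53.8% of their luminal progenitor level in basal and 1.58% to 5.95% in hormone-responsive cells. Whether the UMIs of Spp1 and Lrrc32 in those classes are expression was not tested. Against hormone-responsive cells, 16 of 27 were higher in basal cells and 1 was lower, where 20.5% and 14.8% of all genes tested were. In luminal progenitor over hormone-responsive cells 13 were higher and 3 lower, where 13.7% and 10.3% of all genes were.

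**Figure D4:**
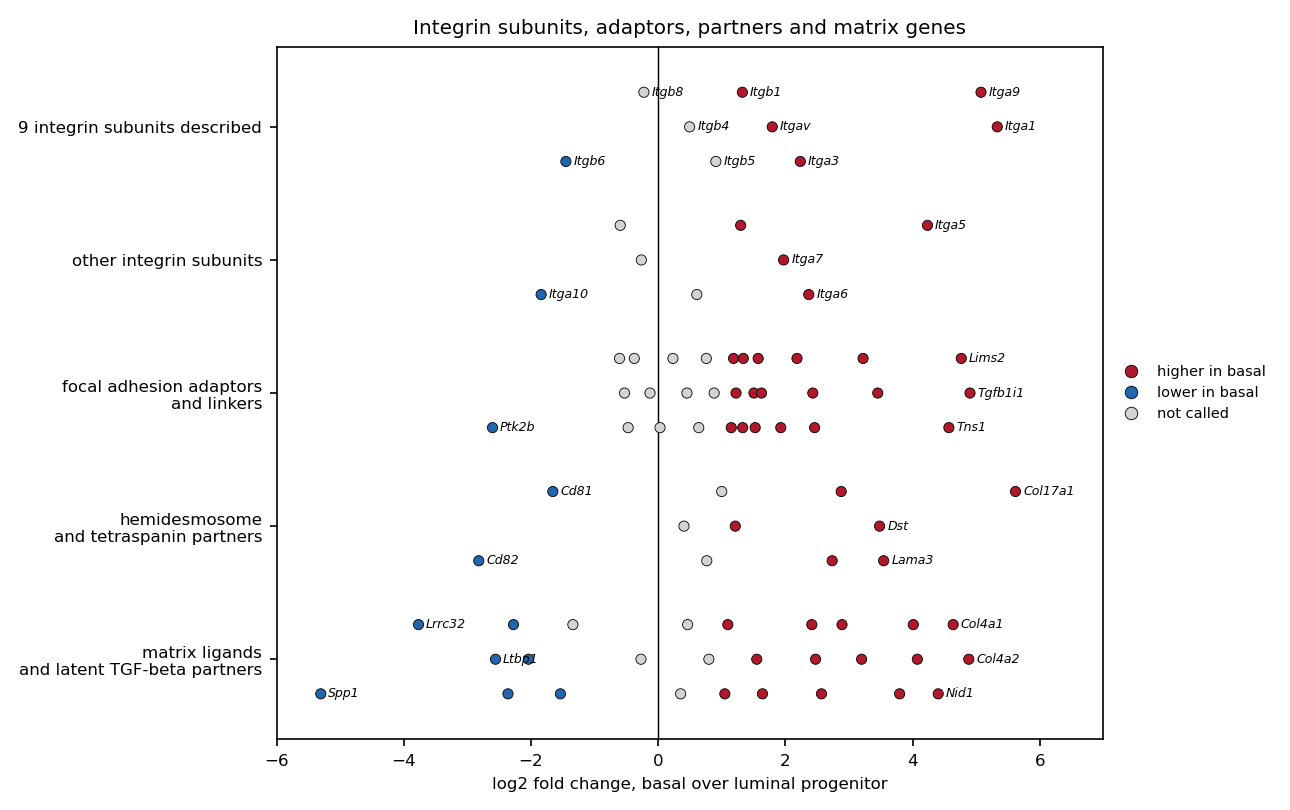
Log2 fold change of basal over luminal progenitor cells for the 9 integrin genes and for the tested genes of 4 further lists, each point 1 gene (red called higher in basal, blue called lower, grey not called; vertical offsets within a list only separate points). Named points are the 9 genes and the called genes with the largest differences in each list. Points of the matrix list reach furthest to the lower side, at -5.31 for Spp1.

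The 9 genes were also set beside the 12647 tested genes by Pearson correlation of log2 CPM (prior count 2) over the 9 sums of library and class. These sums share libraries and depth, and the correlation is a description. The genes most like Itga3 were Lamc1, the laminin gamma 1 chain (r = 0.999), Gli3 and Trim29. Itga1 was most like Arhgap25 (r = 0.997), Rbpms and Pkp1, and Itga9 most like Tro (r = 0.995), Fam129a and Hmcn1. Itgb1 was most like Ehd2 (r = 0.990), Asph and Ckap4, and Itgav most like Gm7676 (r = 0.986), Nuak1 and Ifitm3. Itgb8 was most like Phxr4 (r = 0.993), Atp2b1 and Nfib, Itgb6 most like Eif2b4 (r = 0.992), Itgb5 most like Dirc2 (r = 0.976), Fcgrt and Ift122, and Itgb4 most like Sdc2 (r = 0.959), Cpeb2 and Rab20. Among the 9 themselves, Itga1 and Itga9 had the highest correlation (r = 0.979) and Itgav and Itgb6 the lowest (r = -0.911).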

How the data were processed

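Droplet single-cell RNA-seq of sorted mammary epithelial cells was available as 3 libraries. The authors deposited raw UMI counts per gene symbol and barcode. Cell Ranger 2.1.0 and build mm10 are named per the submitters' processing notes; the annotation, the rule for calling cells, any doublet removal and the use of strand are not named there or in the labels. Counts summed over all deposited barcodes were 18584156, 27220670 and 30984706 in libraries 1, 2 and 3, and 0 columns of samples were left unused.

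Kept cells were classed by the marker sums described above. Cells with mixed sums received no class. No doublet caller was run, so doublets within a class, or unequal ones of 2 classes, may remain. Counts were summed per library and class (9 sums, the smallest of 1320546 UMIs). The quasi-likelihood test of edgeR 4.0.16 in R 4.3.3 compared the sums, with TMM factors, filterByExpr and a block for library, adjusted by Benjamini-Hochberg. DESeq2 1.42.0 was an alternative. The 11 assigning genes were not tested. All 9 integrin genes passed the filter, Itga1 only through its basal sums. Levels are CPM by total counts; within-library ratios are log2 CPM with a prior count of 2. Intervals are exact at 95%. Promoters are RefSeq entries. The test was also run on simulated counts with a fixed spread and no differences between libraries. The real libraries differed, so that run does not give the error rates here.

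The block follows from the classes of 1 library sharing a suspension. Deviations from class means correlated at 0.21 to 0.44 across genes within a library and at -0.34 to 0.06 between libraries; such deviations sum to 0 over the 3 libraries. For each comparison 13 alternatives were run. The members, the lists and the tests were chosen with earlier results of these data known. All 9 members were named, and in each list up to 3 called genes in each direction with the largest differences between basal and luminal progenitor cells, plus Itga2, Itga4, Itga5, Itga6 and Itgb3.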

Additional observations from a re-analysis of the deposited data

How the results depend on the processing

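Of 351 member fold changes under 13 alternatives, 329 kept their direction and their side of the threshold. In basal over luminal progenitor cells the calls of Itga1, Itga3, Itga9, Itgav, Itgb1 and Itgb6 were kept in all 13, and Itgb5 passed the threshold with DESeq2 (1.00), without library 1 (1.39) and with sums thinned to equal totals (1.01). In basal over hormone-responsive cells Itgb1 passed it with DESeq2 (1.04), with no filter on low counts (1.01) and without library 2 (1.07). Values near 0 changed sign there: Itgb5 to 0.046 with DESeq2, 0.016 with no filter, 0.017 with the barcodes of most UMIs left out and 0.097 with thinned sums, and Itgb6 to 0.024 with those barcodes left out and 0.185 with thinned sums. Leaving out 1 library gave Itgb5 values of -0.094 to 0.065. The cause was not tested.

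Between luminal progenitor and hormone-responsive cells 3 members were called, against 5 with total counts in place of TMM factors, which moved the median of all genes by -0.12. Itga3 (-1.03) and Itgb5 (-1.06) then passed the threshold. With class sums of at least 10 UMIs Itgav was not called (-0.996, adjusted p = 0.00137). Leaving out 1 library gave values of -0.005 to 0.377 for Itga9 and -0.197 to 0.022 for Itgb4. Leaving out 1 library gave 6 to 7 called members in basal over luminal progenitor, 4 to 5 in basal over hormone-responsive and 1 to 4 in luminal progenitor over hormone-responsive cells. Called genes then numbered 3353 to 4188, 3954 to 4701 and 2338 to 3424, against 3847, 4461 and 3029 with all libraries. Without the replicate block they numbered 3644, 4237 and 2801, and the pairing changed no call of a member. Of 54 values for shares of cells, unthinned or thinned to 1000 UMIs, 49 moved by more than 1 SD, since thinning sets the UMIs per cell. Itga1 and Itgb6 had the fewest UMIs of the 9 genes, and 3 counts in the smallest sum are 2.27 CPM.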

Other observations

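Further genes of the same lists were chosen after their values were seen. Itga8, an alpha chain that pairs with beta 1, stood at 45.6, 80.8 and 80.9 CPM in basal cells, against 46.0, 37.0 and 46.2 CPM in luminal progenitor cells and 1.51, 2.92 and 3.55 CPM in hormone-responsive cells. Its log2 fold change over hormone-responsive cells was 4.66 ± 0.17 in basal cells (adjusted p = 2.28e-06) and 4.05 ± 0.63 in luminal progenitor cells (adjusted p = 8.58e-06), so it shared with Itgb8 and Itgb3 its lowest level in hormone-responsive cells. The 3 TGF-beta ligands each differed: Tgfb2 stood at 27.5, 25.4 and 22.8 CPM in basal cells, against 49.8, 98.1 and 68.8 CPM in luminal progenitor cells and 1.51, 2.92 and 3.08 CPM in hormone-responsive cells. Tgfb3 stood at 50.4, 92.6 and 85.8 CPM, against 205, 345 and 364 CPM and 50.0, 41.1 and 41.9 CPM in the same classes. Tgfb1 stood at 45.03, 38.3 and 18.8 CPM, against 14.5, 21.8 and 9.48 CPM and 78.8, 81.5 and 26.3 CPM. Luminal progenitor cells thus had the highest levels of Tgfb2 and Tgfb3 and the lowest of Tgfb1 in every library.

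Cells that stand out within a class, also chosen after the data were seen, gave the following values without a test. Among luminal progenitor cells, the 530 in which the division genes Top2a or Mki67 were detected had Itgb6 at 4.48, 2.17 and 4.38 CPM, against 10.3, 11.99 and 11.5 CPM in the other luminal progenitor cells. These rest on 10 UMIs in the dividing cells. Basal cells with a UMI of Procr (135 cells), a surface receptor of some basal cells, had Itga1 at 12.3, 25.9 and 35.4 CPM, against 15.1, 13.2 and 11.3 CPM in the other basal cells. These rest on 9 UMIs in the Procr-positive cells, and the groups overlap.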
